A study of Mus musculus with 4 samples.

Results

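The MHC class II presentation genes are the 8 genes by which a leukocyte shows peptides to CD4+ T cells: the chains H2-Aa, H2-Ab1 and H2-Eb1, the peptide editor genes H2-DMa, H2-DMb1 and H2-DMb2, the invariant chain gene Cd74 and the transactivator gene Ciita. They were chosen by name and not by a rule on their values, though earlier results of these data were known. All 8 were found among the 16308 genes of the files. They were followed through 5800 CD45+ cells of the small intestinal muscularis externa, the outer muscle layer of the gut, taken from 12-week-old mice after intestinal manipulation, an operation in which the bowel is handled. The 4 libraries held 1674 cells of WT 24 h, 1769 of CCR2 KO 24 h, 1315 of WT 72 h and 1042 of CCR2 KO 72 h. WT mice were C57BL/6J. CCR2 KO mice were Ccr2-/- with the strain label B6.129S4-Ccr2tm1Ifc/J, a germline deletion that is not limited to 1 cell type. Runs of 4 values keep this order of libraries throughout. No library of uninjured muscularis was among the 4. Each library pooled several mice and there was 1 library per group, so no test between groups was possible. Values in parentheses are 95% intervals that cover the error of counting alone, and a comparison sets 1 library beside another.

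Class II molecules are pairs of an alpha and a beta chain. H2-Aa and H2-Ab1 encode the pair known as I-A, and H2-Eb1 encodes the beta chain of I-E, whose alpha chain gene H2-Ea is defective in C57BL/6 mice. The invariant chain encoded by Cd74 fills the groove of a new molecule and takes it to endosomes, where cathepsins degrade it, and the H2-DM heterodimer then exchanges the remaining fragment for peptides. CIITA does not bind DNA by itself but is recruited to these promoters by the RFX, CREB and NF-Y factors that occupy the X and Y boxes. Dendritic cells and B cells use class II constantly, whereas monocytes gain it as they mature into Mφs, for which interferon gamma is the classical stimulus. In the healthy muscularis, resident Mφs are known to carry it.

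Of the genes, 6 lie in the class II region of chromosome 17 (GRCm38, GENCODE vM21): H2-DMa at chr17:34119541-34139101, H2-DMb2 at chr17:34143307-34151555, H2-DMb1 at chr17:34153072-34160230, H2-Ab1 at chr17:34257689-34269419 and H2-Eb1 at chr17:34305867-34316674 on the plus strand, and H2-Aa at chr17:34282744-34287823 on the minus strand. Ciita lies at chr16:10480059-10528418 and Cd74 on chromosome 18, both on the plus strand. Over all cells, Cd74 gave the most UMIs (unique molecular identifiers, each standing for 1 captured RNA molecule), 511294. H2-Ab1 gave 191117, H2-Aa 188262, H2-Eb1 164697, H2-DMa 25602, H2-DMb1 22981, Ciita 6379 and H2-DMb2 5231. These are 3' counts, 1 per molecule and not per length, and the efficiency of capture may differ between genes.

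Cells were clustered without these 8 genes and without the other pathway genes described below, and clusters were named from fixed markers. Monocyte/Mφ-like cells numbered 1285, 221, 881 and 148, and each of their clusters had at least 9 of the 10 markers. Dendritic cell-like cells numbered 53, 62, 139 and 132. Different clusters made up the monocyte/Mφ-like class in the libraries. Clusters led by Ppbp and Ccl7 (540 cells) and by Vcan and Ms4a4c (605) held most of it in WT 24 h, and the same clusters held 95 and 56 cells in CCR2 KO 24 h beside 52 in a cluster led by Lilra5 and Vcam1. Clusters led by Apoe and Ms4a7 (512) and by Ear2 and Mgl2 (169) held most of it in WT 72 h, and those led by Lilra5 and Vcam1 (81) and by Cxcl13 and Saa3 (37) in CCR2 KO 72 h. Median UMIs per cell of all cells were 12859, 3283, 12427 and 5016, but in monocyte/Mφ-like cells they were closer, at 14579, 15762, 13981 and 12845. Ccr2, the targeted gene, was lower in both CCR2 KO libraries without reaching 0. In monocyte/Mφ-like cells at 24 h, WT had 759 CPM (747 to 771) and CCR2 KO had 94.8 (85.1 to 105). At 72 h, WT had 1064 CPM (1046 to 1082) and CCR2 KO had 83.2 (71.3 to 96.5). CPM (counts per 1e+06) scale the UMIs of a gene by the total UMIs of its cell class. Of 5807 barcodes, 4 occurred in more than 1 library.

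The 8 genes separated the leukocyte classes into 3 levels. Dendritic cell-like cells were at the top, with 49870 CPM for the 8 genes together in WT 24 h (49400 to 50343), 45227 in CCR2 KO 24 h, 50017 in WT 72 h and 45355 in CCR2 KO 72 h. B cell-like cells were lower, at 17997, 24888, 24563 and 21628 CPM from 6, 36, 20 and 12 cells. Plasma cell markers were part of this class, with sums of 33478, 8955, 817 and 22046 CPM over the list of 5, and their part in these levels was not tested. Monocyte/Mφ-like cells differed more between libraries than these classes, at 9222 CPM (9179 to 9265), 19013 (18872 to 19155), 32627 (32527 to 32727) and 10786 (10646 to 10927). In WT 72 h they stood above B cell-like cells and in the other libraries below them. Neutrophil-like cells (239 to 415 CPM), Siglecf-high cells (335 to 594), NK cell-like cells (76.0 to 289) and innate lymphoid cell-like cells (51.8 to 219) were at the bottom. The Siglecf-high cells had neutrophil markers but were led by Siglecf and were kept apart.

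**Figure D1:**
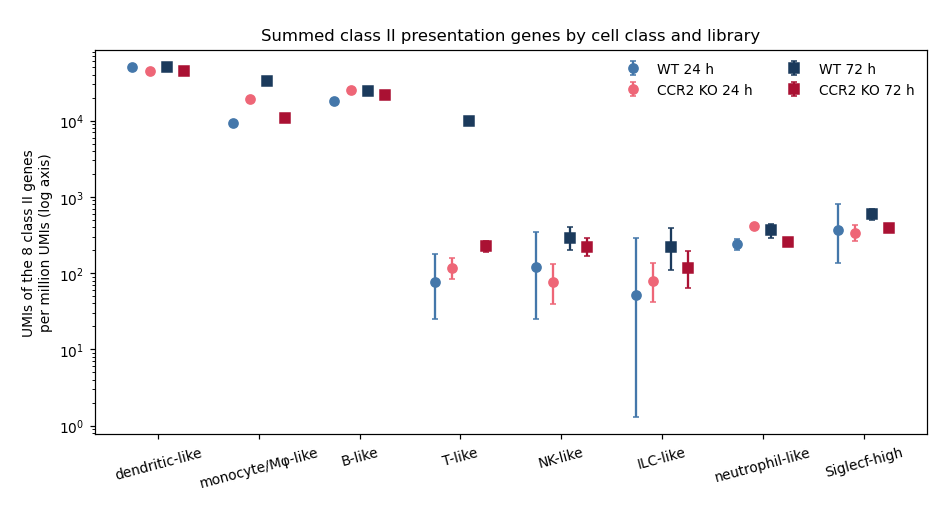
Summed CPM of the 8 class II genes (y, log axis) in each cell class (x) and library (colour and symbol), with exact Poisson 95% intervals of counting error. Dendritic cell-like cells stay between 45227 and 50017, monocyte/Mφ-like cells run from 9222 to 32627, and the T cell-like value of WT 72 h rests on 3 cells.

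T cell-like cells were also at the bottom in 3 libraries, at 77.3 CPM in WT 24 h, 117 in CCR2 KO 24 h and 224 in CCR2 KO 72 h, but at 9976 in WT 72 h. There, 3 of 32 cells held 98.8% of the class's class II UMIs. These 3 cells had Lyz2, a myeloid gene, at 7537 CPM against 96.6 in the other 29 T cell-like cells, Csf1r at 877 against 0, and Cd3e at 160 against 724, with 16953 median UMIs against 5661. Without them the T cell-like cells of WT 72 h were at 150 CPM (99.8 to 217). The B cell-like cells of WT 72 h also carried monocyte/Mφ markers, 3548 CPM over the list of 10 against 15.2 to 33.5 in the other libraries. Doublets (droplets with more than 1 cell) could not be called here, and their part in these values was not tested.

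Which class held the class II RNA differed between the libraries of WT and CCR2 KO. In WT, monocyte/Mφ-like cells held 80.1% of the 8 genes' UMIs at 24 h and 74.0% at 72 h, and dendritic cell-like cells held 19.3% and 24.2%. In CCR2 KO 24 h the shares were 49.3% and 43.6%. In CCR2 KO 72 h they were 11.5% and 86.3%, from 148 monocyte/Mφ-like and 132 dendritic cell-like cells. Over all cells of a library the 8 genes were at 10525 CPM in WT 24 h, 13491 in CCR2 KO 24 h, 33417 in WT 72 h and 20478 in CCR2 KO 72 h. These sums over all cells mix the number of cells of a class and the RNA in each cell, so levels are compared within classes below.

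To ask how the absence of CCR2 bears on class II genes in monocyte/Mφ-like cells early after injury, CCR2 KO was compared with WT at 24 h. The chains were higher in CCR2 KO. WT had 1445 CPM of H2-Ab1 (1428 to 1462) and CCR2 KO had 2970 (2915 to 3027), a log2 ratio of 1.04 (1.01 to 1.07). H2-Eb1 was at 1117 and 2578 CPM (1.21, 1.17 to 1.24), and H2-Aa at 1545 and 3021 (0.97, 0.94 to 0.999). Cd74 was at 4595 and 9515 CPM (1.05, 1.03 to 1.07). The editor genes differed among themselves: H2-DMb1 was at 219 and 505 CPM (1.21, 1.13 to 1.29) and its partner H2-DMa at 265 and 370 (0.48, 0.39 to 0.57). Ciita differed least, at 30.02 and 39.5 CPM (0.39, 0.12 to 0.66). H2-DMb2 was low in both libraries, with 110 and 48 UMIs in all. Of the 7 members with at least 20 CPM in 1 library, 4 were at least 2-fold higher in CCR2 KO on the log2(CPM + 10) scale and 0 lower. In the same comparison, 1.73% of 5882 genes were 2-fold higher and 0.68% lower.

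At 72 h the direction was the opposite. WT had 5873 CPM of H2-Aa (5831 to 5915) and CCR2 KO had 1609 (1556 to 1665), a log2 ratio of -1.87 (-1.92 to -1.82). H2-Eb1 was at 5296 and 1614 CPM (-1.71, -1.76 to -1.66), and H2-Ab1 at -1.59 (-1.64 to -1.55). Cd74 was at 14695 and 5094 CPM, a log2 ratio of -1.53. Ciita was at 139 and 54.2 CPM (-1.36, -1.64 to -1.08). The editor genes H2-DMa, at 688 and 348 CPM (-0.99, -1.10 to -0.88), and H2-DMb1, at 599 and 297 (-1.01, -1.13 to -0.89), were lower by less than the chains. The third, H2-DMb2, was at -1.40 (-2.11 to -0.76). Of 8 members, 5 were at least 2-fold lower in CCR2 KO, where 1.53% of 6410 genes were, and 0 were 2-fold higher, where 3.42% of genes were. The sum of the members had a log2 ratio of 1.04 at 24 h and -1.60 at 72 h. The size of the second value rests on 1 sub-cluster of 76 CCR2 KO cells, led by Igkc, Igha and genes of dividing cells and described below, without which it was -0.83. At a finer clustering (resolution 2), which left 58 CCR2 KO cells in the class, it was -0.99. The count of 5 members also rests on the Igkc-led sub-cluster. Without those cells the log2 ratios were -1.09 for H2-Aa, -0.95 for H2-Eb1, -0.80 for H2-Ab1, -0.76 for Cd74 and -0.37 for Ciita. Of these, only H2-Aa was still past 2-fold. The value at 24 h was 2.20 where each library was clustered on its own, which named 429 of the WT cells and 219 of the CCR2 KO cells as monocyte/Mφ-like.

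Both time comparisons use the same 4 libraries, so they hold no further evidence, but they set the times side by side for each gene. In WT, all 8 members were at least 2-fold higher at 72 h than at 24 h, against 4.1% of 6200 genes, and 0 were lower, against 3.82%. H2-Eb1 had the largest ratio (2.25, 2.22 to 2.27). Ciita (2.21, 2.07 to 2.35) and H2-DMb2 (2.21, 1.90 to 2.54) were next, followed by H2-Aa (1.93), H2-Ab1 (1.88), Cd74 (1.68, 1.67 to 1.69), H2-DMb1 (1.45) and H2-DMa (1.38). In CCR2 KO, 0 of 7 members were 2-fold lower at 72 h, against 3.14% of 6435 genes, and 0 were higher, against 5.61%. H2-Aa (-0.91, -0.96 to -0.85), Cd74 (-0.90) and H2-DMb1 (-0.77) were lower, the interval of H2-DMa included 0 (-0.09, -0.22 to 0.04), and Ciita was higher (0.46, 0.09 to 0.82). Directions in CCR2 KO rest on the sub-cluster led by Igkc: without it, H2-Ab1 (0.015), H2-Eb1 (0.069), H2-DMa (0.51) and H2-DMb2 (0.48) were higher at 72 h. Without it, the sum of the members in CCR2 KO was at 19077 CPM at 24 h and 18231 at 72 h, a log2 ratio of -0.07 in place of -0.82.

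**Figure D2:**
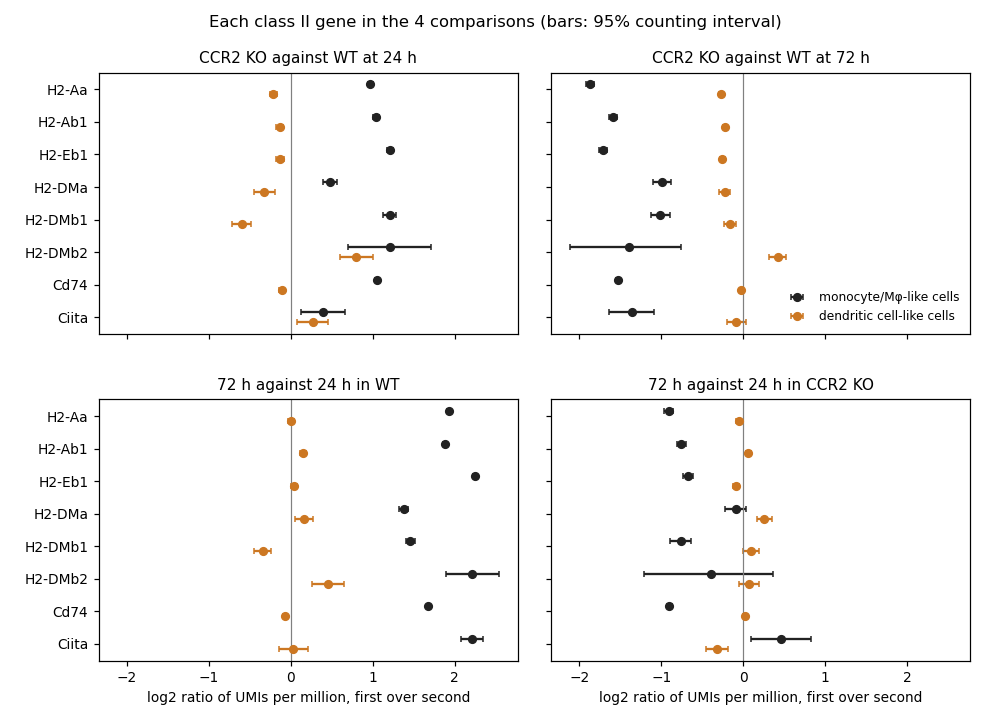
Log2 ratio (x) of the CPM of each gene (y) in the 4 comparisons, for monocyte/Mφ-like cells (black) and dendritic cell-like cells (orange), with exact conditional binomial 95% intervals. In monocyte/Mφ-like cells the ratios of CCR2 KO to WT lie above 0 at 24 h and below 0 at 72 h, while in dendritic cell-like cells they lie closer to 0, the furthest being H2-DMb2 at 0.80 (24 h).

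The level per cell was spread widely. After each cell had been thinned at random to 1000 UMIs, the 8 genes gave a median of 2 UMIs per monocyte/Mφ-like cell in WT 24 h, 9 in CCR2 KO 24 h, 29 in WT 72 h and 1 in CCR2 KO 72 h, with 10, 5, 11 and 17 shallower cells left out. The 90th percentiles were 33, 53, 72 and 38, where the medians of dendritic cell-like cells were 50, 47, 49 and 44. Cells with 50 or more were 4.63%, 12.5%, 29.5% and 8.40% of monocyte/Mφ-like cells. Cells with 10 or more such UMIs were 28.6%, 49.1%, 70.5% and 19.1% of monocyte/Mφ-like cells and 88.5% to 99.3% of dendritic cell-like cells. H2-Ab1 was found in 36.2% of monocyte/Mφ-like cells of WT 24 h (33.6 to 38.9), 54.2% of CCR2 KO 24 h (47.3 to 60.9), 75.1% of WT 72 h (72.0 to 77.9) and 35.9% of CCR2 KO 72 h (27.7 to 44.7). In neutrophil-like cells thinned in the same way, which serve as the background, it was found in 1.303% to 2.38%. Without thinning the monocyte/Mφ-like shares were 58.9%, 75.6%, 87.7% and 73.0%, where median depth was 14579, 15762, 13981 and 12845 UMIs against 1888 to 4736.5 in neutrophil-like cells. Within a library the chains went together from cell to cell: Spearman's rho between H2-Aa and H2-Ab1 over monocyte/Mφ-like cells was 0.79, 0.85, 0.84 and 0.65. Between H2-Ab1 and B2m, the light chain of class I, it was 0.07, -0.09, -0.14 and 0.08. These are descriptions over cells of 1 library at 1 depth. Between H2-Ab1 and H2-DMa rho was 0.19 to 0.39, with few UMIs of H2-DMa per thinned cell.

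**Figure D3:**
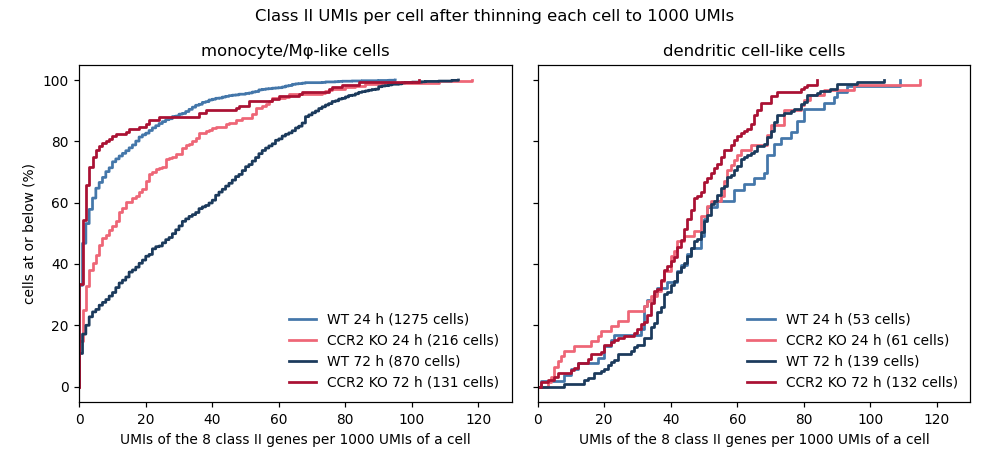
Share of cells (y, %) at or below a given number of class II UMIs per 1000 UMIs of a cell (x), for each library. The monocyte/Mφ-like curves separate, with WT 72 h (median 29) furthest to the right, while the 4 dendritic cell-like curves lie close together (medians 44 to 50).

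The 2535 monocyte/Mφ-like cells were clustered again to see which cells carried the genes, and the sub-clusters are called by their leading genes. In sub-clusters of at least 20 cells, the sum of the 8 members ran from 3946 CPM in a sub-cluster led by Ppbp, Pf4 and Fabp5 and 4575 in one led by Cxcl3, Csf3 and Il1a (scored as Arg1 cells) to 61463 in one led by H2-Eb1, Cd72 and H2-Aa. The last was scored as Cx3cr1 Mφs and its own leading genes include the members, so its high level is a description of how it stands out. Next came 43670 CPM in a sub-cluster led by Ear2, Cd209a and Ccl17, and 35853 in one led by Mmp13, Ch25h and Lilra5 (Cx3cr1). The leading genes of the Ear2-led one also include H2-DMb2 and H2-DMb1, so its levels of these are likewise a description. A sub-cluster led by Igf1, Ms4a7 and Selenop (scored as Cd206 Mφs) was at 24352. The Ppbp-led and Cxcl3-led sub-clusters were sampled mostly in WT 24 h, where 347 and 269 of their cells lay. The Cd206 sub-cluster had 299 of its 304 cells in WT 72 h, and the H2-Eb1-led one all but 9 of its 111. Cd209a and Ccl17 are dendritic cell markers, and the cells of that sub-cluster held 37.9% of the class II UMIs of monocyte/Mφ-like cells in WT 72 h and 70.7% of the H2-DMb2 UMIs. Without it and a small sub-cluster led by S100a9, the sums were 8458, 18835, 27729 and 9876 CPM, so that CCR2 KO differed from WT by log2 ratios of 1.16 (24 h) and -1.49 (72 h).

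Within sub-clusters that had at least 20 cells in both libraries, the 24 h difference of the sum had the same direction in each of 4. In the sub-cluster led by Cxcl10, Cxcl9 and Isg15 (scored as Ly6c monocytes), the sum was at 16270 CPM in 410 WT cells and 31709 in 41 CCR2 KO cells (log2 ratio 0.96, 0.94 to 0.98). In the one led by Ppbp it was at 3433 and 7152 CPM in 347 and 32 cells (1.06, 0.9996 to 1.12). In the one led by Mmp13 it was at 16797 and 27856 CPM in 21 and 47 cells (0.73, 0.68 to 0.78), and in the one led by Inhba, Spp1 and Il7r at 10959 and 13105 in 53 and 73 cells (0.26, 0.22 to 0.30). In the first of these, H2-DMb1 was at 407 and 1172 CPM, a larger difference (1.53) than that of any chain there (0.83 to 0.997). The single members did not all follow the sum. Ciita was lower in CCR2 KO in the Inhba-led cells (-1.83, -3.76 to -0.10), from 9 WT and 5 CCR2 KO UMIs. It was higher in the Cxcl10-led cells (0.80, 0.41 to 1.16). Its ratio was -1.70 (-7.03 to 0.84) in the Ppbp-led cells and 0.12 (-0.78 to 1.11) in the Mmp13-led cells. H2-DMa was at -0.42 (-0.999 to 0.11) in the Ppbp-led cells and at 0.40 to 0.75 in the others. In the Ppbp-led cells the median depth was 16213 UMIs in WT and 6241 in CCR2 KO, and the part of depth was not tested. The 32 to 73 CCR2 KO cells of a sub-cluster come from the same pooled library and are not independent.

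At 72 h only 2 sub-clusters had enough cells of both genotypes. The one led by Igkc, Igha and Gal, with the dividing genes Pclaf, Stmn1, Top2a and Mki67 also among its 10 leading genes, held 76 of the 148 CCR2 KO cells and 49 of the 881 WT cells. Its WT cells had 36272 CPM of the 8 genes and its CCR2 KO cells 6653 (-2.45, -2.48 to -2.41). It was scored as Cx3cr1 Mφs, with Cx3cr1 at 222 CPM in its WT cells and 310 CPM in those of CCR2 KO, Adgre1 at 658 and 506, Csf1r at 1001 and 565, and Mki67 at 249 and 161. Ccr2 was at 690 and 6.65 CPM. The immunoglobulin light chain gene Igkc, a product of plasma cells, was not found in the WT cells (0 CPM) but reached 935 CPM in those of CCR2 KO, and the 5 plasma cell markers summed to 241 CPM in all monocyte/Mφ-like cells of CCR2 KO 72 h against 7.08 to 13.7 in the other libraries. The part of that RNA in the difference was not tested. The other, led by Retnla, Ltc4s and Cd5l (Timp2), was at 8097 CPM in 145 WT cells and 3256 in 36 CCR2 KO cells (-1.31, -1.46 to -1.17), but the CCR2 KO cells had a median of 1878.5 UMIs against 12990. For the remaining sub-clusters CCR2 KO 72 h had at most 12 cells, which is too few for a comparison. In WT the later time was higher within each of 3 sub-clusters that could be compared: the one led by Ly6c2, Dmkn and Napsa was at 2647 CPM at 24 h and 15682 at 72 h (2.57, 2.50 to 2.64), the Retnla-led one at 1315 and 8097 (2.62, 2.50 to 2.75), and the one led by Ear2 at 32270 and 46406 (0.52, 0.50 to 0.55). WT cells of the Retnla-led one had a median of 6782 UMIs at 24 h against 12990 at 72 h, and the part of depth was not tested.

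**Figure D4:**
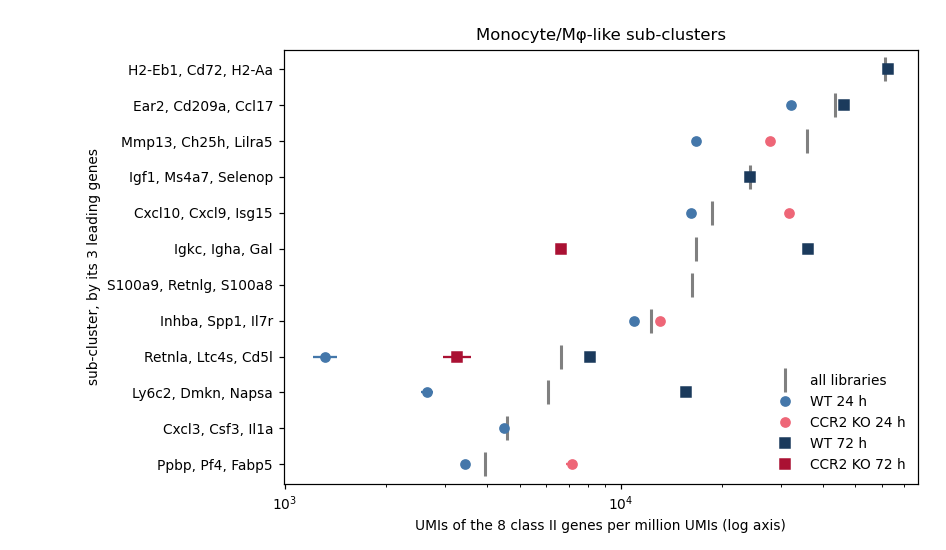
Summed CPM of the 8 class II genes (x, log axis) in monocyte/Mφ-like sub-clusters (y, by 3 leading genes), over all libraries (grey bar) and in each library with at least 20 cells (points, with Poisson 95% intervals). The red and blue circles show CCR2 KO above WT at 24 h in 4 sub-clusters, and in the Igkc-led one WT 72 h (36272) stands above CCR2 KO 72 h (6653).

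In dendritic cell-like cells the same comparisons gave small differences. This class also carried monocyte/Mφ markers, with 1575, 876, 1574 and 774 CPM over the list of 10. A sub-cluster led by Apoe, C1qa and Pf4 had 10 cells in WT 72 h, which held 11.3% of the class's class II UMIs there. The part of that RNA in these differences was not tested. The sum of the members was lower in CCR2 KO by 0.14 on the log2 scale at each time (-0.16 to -0.12 at 24 h and -0.15 to -0.13 at 72 h), and differed between times by 0.00 in WT and 0.00 in CCR2 KO (-0.01 to 0.02 in each). H2-Ab1 was at 9116, 8298, 10103 and 8653 CPM, and Cd74 at 21700, 20056, 20701 and 20345. None of the 8 members was 2-fold higher or lower in any of the 4 comparisons. Of all genes, CCR2 KO had 2.09% of 6036 higher by 2-fold at 24 h and 1.36% lower, while at 72 h these were 0.721% and 1.78% of 6240. In WT, 3.32% of 6213 genes were 2-fold higher and 1.55% lower at 72 h, and in CCR2 KO 1.87% and 1.74% of 6211. Ciita was at 401, 482, 409 and 386 CPM, above its 139 in monocyte/Mφ-like cells of WT 72 h. The exceptions in direction were Ciita at 24 h (0.27, 0.08 to 0.46) and H2-DMb2 at both times. H2-DMb2 was higher in CCR2 KO, with 553 CPM (514 to 594) against 317 (281 to 357) for WT at 24 h (0.80, 0.60 to 1.01) and 580 (556 to 605) against 433 (409 to 459) at 72 h (0.42, 0.32 to 0.52). H2-DMb1 was lower in the same cells, at 1313 and 865 CPM at 24 h (-0.60, -0.72 to -0.48) and at 1034 and 927 at 72 h (-0.16, -0.23 to -0.08).

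H2-DMb1 and H2-DMb2 are neighbouring genes for similar beta chains of H2-DM, and the classes used them differently. In monocyte/Mφ-like cells there were 38.5 H2-DMb1 UMIs per H2-DMb2 UMI in WT 24 h (31.9 to 47.0), 38.4 in CCR2 KO 24 h (28.8 to 52.3), 22.8 in WT 72 h (20.4 to 25.5) and 29.8 in CCR2 KO 72 h (19.3 to 48.4). In dendritic cell-like cells there were 4.14 (3.62 to 4.74), 1.56 (1.43 to 1.72), 2.39 (2.23 to 2.56) and 1.60 (1.52 to 1.69). In B cell-like cells H2-DMb2 was the more abundant, with 0.189 H2-DMb1 UMIs per H2-DMb2 UMI in CCR2 KO 24 h (0.123 to 0.280) and 0.160 in CCR2 KO 72 h (0.0792 to 0.296). WT 24 h had 4 and 15 UMIs in its 6 B cell-like cells, and in WT 72 h, where monocyte/Mφ markers were present, the value was 0.763 (0.556 to 1.04). Among dendritic cell-like sub-clusters the share of H2-DMb1 in the UMIs of both genes ran from 29.8% (27.4 to 32.3) in mature cells (Ccr7, Fscn1) to 73.9% (71.6 to 76.1) in cells led by Retnla, Phlda1 and Fn1, 86.4% (85.1 to 87.5) in type 1 cells (Xcr1) and 94.2% (91.6 to 96.2) in plasmacytoid cells. In CPM over all libraries, H2-DMb1 and H2-DMb2 were at 369 and 870 in mature cells and at 1211 and 191 in type 1 cells. The libraries differed in these cells. The Retnla-led sub-cluster scored as type 2 cells, but 0 of that list's markers were among its 10 leading genes and the monocyte/Mφ marker Ccl9 was. It had 9, 0, 55 and 1 cells, and the mature one 5, 21, 16 and 14. Whether the makeup of the class accounts for the H2-DMb2 difference between genotypes was not tested. In 1 sub-cluster with over 20 cells of both genotypes at 72 h, that of dividing cells led by Birc5, the class II sum differed by 0.01 (-0.01 to 0.04), while WT had 626 CPM of H2-DMb2 and CCR2 KO 919.

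**Figure D5:**
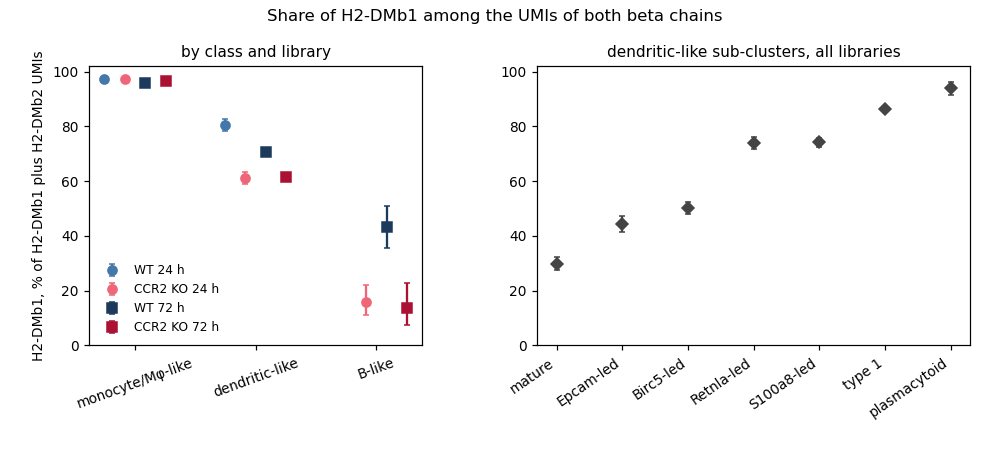
Share of H2-DMb1 (y, %) among the UMIs of H2-DMb1 and H2-DMb2, by class and library (left; monocyte/Mφ-like, dendritic cell-like and B cell-like, libraries with at least 20 such UMIs) and by dendritic cell-like sub-cluster over all libraries (right), with exact binomial 95% intervals. The share runs from above 95% in monocyte/Mφ-like cells to below 20% in B cell-like cells of CCR2 KO, and the sub-clusters span 29.8% to 94.2%.

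The promoters of both genes are shown because a different use of near copies raises how alike their upstream sequences are. They are from RefSeq (GRCm38.p6, all on chromosome 17), read 5' to 3' on the strand of the gene, and capitals mark the letters AACNGATG, the core of the X box, and ATTGG, the core of the Y box. H2-DMb1 is at chr17:34153091-34153142 (plus strand), H2-DMb2 at chr17:34145120-34145171 (plus), H2-Eb1 at chr17:34305770-34305820 (plus) and H2-Aa at chr17:34287859-34287917 (minus).
H2-DMb1: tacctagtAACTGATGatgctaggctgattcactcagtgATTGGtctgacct
H2-DMb2: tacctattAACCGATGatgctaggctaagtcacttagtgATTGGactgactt
H2-Eb1: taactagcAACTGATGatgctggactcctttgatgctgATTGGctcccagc
H2-Aa: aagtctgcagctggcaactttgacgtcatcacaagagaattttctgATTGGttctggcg

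Placed on the Y box core without gaps, H2-DMb1 and H2-DMb2 shared 41 of 48 bases (85.4%). Their cores are 23 bases apart in both and 22 in H2-Eb1. The Y box core begins 61 bases before the RefSeq start of H2-DMb1, 90 before that of H2-DMb2, 59 before H2-Eb1 and 48 before H2-Aa. RefSeq starts differ from those of GENCODE: the stretches shown for H2-DMb1 and H2-DMb2 lie inside the GENCODE spans given above. In the window of H2-Aa, AACNGATG was not found. Over the 250 bases before the start in 32851 promoter entries, on either strand, ATTGG was found in 33.8%, AACNGATG in 1.98%, and AACNGATG followed by ATTGG at 10 to 30 bases in 7 entries (0.0213%). The 7 were H2-DMb1, H2-DMb2, H2-Eb1 and its neighbour H2-Eb2, and BC051142, H2-M10.4 and Gm35697. The motifs were chosen with the promoters in view, and the matches are a description of letters. Of the 8 members, 5 were matched in the promoter table. H2-DMa had 2 entries, with ATTGG in 1 and AACNGATG in neither, and H2-Ab1 and Ciita were not matched. Cd74, on chromosome 18, was left out of this search for members. The transcripts also resemble each other: of 1314 windows of 91 bases in the H2-DMb1 transcript, 206 (15.7%) occur unchanged in an H2-DMb2 transcript. In the last 500 bases, where 3' reads fall, 51 of 410 windows did so for H2-DMb1 and 0 of 410 for H2-DMb2. Reads in shared windows cannot be told apart. The level of H2-DMb1 carries that uncertainty at its 3' end, and that of H2-DMb2 only from reads further upstream.

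Cd74 was found beyond the presenting classes. Neutrophil-like cells had it at 180 CPM (146 to 218) in WT 24 h, 338 (320 to 357) in CCR2 KO 24 h, 232 (176 to 301) in WT 72 h and 185 (160 to 212) in CCR2 KO 72 h, while H2-Ab1 was at 21.8, 18.9, 48.9 and 20.1. After thinning, Cd74 was found in 15.6%, 19.5%, 16.7% and 15.6% of neutrophil-like cells and H2-Ab1 in 1.38%, 1.303%, 2.38% and 1.90%. There were 3.18, 3.20, 2.77 and 2.89 Cd74 UMIs per H2-Ab1 UMI in monocyte/Mφ-like cells, while dendritic cell-like cells had 2.38, 2.42, 2.05 and 2.35, but 8.25 (4.52 to 16.5), 17.9 (14.2 to 22.9), 4.75 (2.52 to 9.73) and 9.18 (5.90 to 15) in neutrophil-like cells. The neutrophil-like interval lay above the monocyte/Mφ-like and dendritic cell-like values in 3 libraries and included the monocyte/Mφ-like one in WT 72 h. B cell-like cells were at 3.88 to 5.27, and their 5.27 in WT 24 h lay within the neutrophil-like interval. In CCR2 KO 24 h, 1 of 1238 neutrophil-like cells held 6.67% of the class's class II UMIs, and its part in the ratio was not tested. Siglecf-high cells were at 14.7 (6.89 to 37.5) in WT 72 h and 8.07 (5.80 to 11.5) in CCR2 KO 72 h. Neutrophil-like cells also had 408 to 547 CPM over the 10 monocyte/Mφ markers, against 4712 to 7049 in monocyte/Mφ-like cells, and the part of such RNA in the Cd74 level was not tested. NK cell-like cells, with 5, 28, 17 and 35 cells, had Cd74 at 0, 12.7, 136 and 149 CPM.

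Proportions among the chains varied less than levels. H2-Aa per H2-Ab1 was 1.07, 1.02, 1.11 and 0.915 in monocyte/Mφ-like cells, while dendritic cell-like cells had 0.931, 0.880, 0.840 and 0.811. H2-Eb1 per H2-Ab1 was 0.773 (0.759 to 0.787) in monocyte/Mφ-like cells of WT 24 h and 0.997 (0.987 to 1.01) in those of WT 72 h, so the I-E chain was nearer to the I-A chain in the later library. Ciita per H2-Ab1 was 0.0208, 0.0133, 0.0262 and 0.0308 in monocyte/Mφ-like cells, 0.0440, 0.0581, 0.0405 and 0.0446 in dendritic cell-like cells and 0.0660 to 0.115 in B cell-like cells. The higher chains of CCR2 KO 24 h stood beside the lowest ratio of Ciita to chain.

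Most other genes of the pathway differed less than the members in monocyte/Mφ-like cells. Of 6 processing enzymes, 0 were 2-fold higher or lower in any of the 4 comparisons, with medians of 0.04 (CCR2 KO against WT at 24 h), -0.06 (at 72 h), 0.04 (72 h against 24 h in WT) and -0.32 (in CCR2 KO) on the log2(CPM + 10) scale, beside -0.06, 0.10, -0.04 and 0.12 over all genes. In these comparisons 0.68% to 5.61% of all genes passed 2-fold in a given direction. A count of 0 in lists this short is near that share. Ctsb was at 3224, 3573, 3528 and 2941 CPM and Ctss, the cathepsin that cuts the invariant chain in dendritic cells and B cells, at 2389, 2370, 3241 and 1855. Of 7 promoter-binding factors, 5 reached 20 CPM and 0 differed 2-fold, with medians of -0.14, 0.05, -0.10 and 0.21; Creb1 was at 43.6, 38.65, 55.4 and 52.8 CPM and Nfya at 35.1, 36.7, 45.6 and 44.2. Of 8 genes of the interferon gamma pathway, 6 or 7 were measured, with medians of -0.24, -0.15, -0.01 and 0.22. One of them, the receptor gene Ifngr1, was 2-fold higher in WT at 72 h, at 219, 139, 454 and 260 CPM, and Jak1 was at 160, 150, 178 and 161. Ifng itself was found in lymphocytes. In the 12, 46, 32 and 77 T cell-like cells it was at 77.3, 54.4, 29.6 and 40.9 CPM. In the 5, 28, 17 and 35 NK cell-like cells it was at 120, 56.99, 25.5 and 68.4. These values rest on few UMIs: in NK cell-like cells of WT 24 h, 440 CPM of Ccr2 stood for 11 UMIs. Differences of Ifng between libraries were not tested. In the 7 genes of MHC class I presentation, 0 differed 2-fold and the medians were 0.07, -0.21, 0.08 and -0.28. H2-D1 was at 1712, 1919, 2620 and 1345 CPM and B2m at 1858, 2231, 2577 and 2226.

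Cd83 differed between the genotypes in the same direction as the chains at both times. CD83 protects class II molecules from the ubiquitin ligase MARCH1, and the pair stands for turnover at the surface. In monocyte/Mφ-like cells Cd83 was at 20.8 CPM in WT 24 h, 52.4 in CCR2 KO 24 h, 196 in WT 72 h and 65.1 in CCR2 KO 72 h, so that its log2 ratios between genotypes were 1.33 (1.08 to 1.58) and -1.59 (-1.85 to -1.34). March1 was at 50.2, 53.5, 70.4 and 50.4. March8 was the third gene of the list, whose medians were 0.14, -0.41, 0.42 and 0.27. Of 6 genes of co-stimulation and co-inhibition, 4 or 5 were measured, with medians of 0.63, -0.61, 0.01 and -0.99. Cd86, a ligand of CD28, was at 133, 175, 118 and 63.3 CPM, and Cd274, which encodes PD-L1, at 43.0, 88.5, 11.5 and 11.4. Neither was 2-fold different between genotypes on that scale, but Cd274 was 2-fold lower at 72 h in both, and Cd86 in CCR2 KO alone. H2-Oa and H2-Ob, which encode the inhibitor of H2-DM, were under 20 CPM in monocyte/Mφ-like cells, at 0.825 to 7.24 and 0.413 to 4.37. H2-Ea and the lysosomal reductase gene Ifi30 are listed pathway genes that were not analysed here. Cd4 and Lag3 encode receptors of class II on T cells. Cd4 was also in monocyte/Mφ-like cells, at 0.825, 15.4, 10.4 and 57.1 CPM, and 2-fold higher in CCR2 KO at 72 h, with 80.6 CPM in the Igkc-led cells of CCR2 KO 72 h and 76.6 in the Mmp13-led cells of CCR2 KO 24 h. Lag3 was at 0, 3.84, 5.65 and 3.80.

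In dendritic cell-like cells the co-stimulation list differed more than the members did. Of its 6 genes, 3 were 2-fold higher in CCR2 KO at 24 h (median 0.95), where 2.09% of genes were: Cd80 (62.6 and 137 CPM), Cd274 (64.9 and 149) and Pdcd1lg2 (12.7 and 70.1). At 72 h the median was 0.09 and 0 of 5 differed 2-fold. Between the times, 4 of 6 were 2-fold lower at 72 h in CCR2 KO (median -1.36), where 1.74% of genes were, and 0 of 5 differed 2-fold in WT (median -0.35). The mature sub-cluster, which holds markers of the same programme, had 21 of 62 cells in CCR2 KO 24 h and 5 of 53 in WT 24 h. Cd83 was at 52.1, 168, 180 and 76.3 CPM. H2-Oa was at 117, 99.7, 143 and 133 CPM and H2-Ob at 47.5, 48.0, 88.8 and 70.1, with medians of the list between -0.20 and 0.52. Processing enzymes had medians of -0.08, -0.24, -0.01 and -0.27, with 1 gene (Ctsl) 2-fold higher in CCR2 KO at 24 h and 2 (Ctsd and Lgmn) lower at 72 h between the genotypes. Of all genes, 2.09% and 1.78% were past 2-fold in these directions. Promoter-binding factors had medians of 0.04, -0.05, -0.11 and -0.05, the interferon gamma pathway -0.04, 0.00, -0.05 and -0.39, and class I genes 0.14, 0.13, -0.12 and -0.14.

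The genes most like the members across the data were sought over 22 combinations of class and library with at least 20 cells, by Pearson's r of log2(CPM + 10) with the mean of the 8 members, among 3814 genes with at least 100 CPM in 1 of them. The combinations share libraries and a class occurs up to 4 times, so r is a description. The 8 highest were Pld4 (0.963), Plekho1 (0.960), BC028528 (0.959), Ly86 (0.958), Prcp (0.938), Ctsh (0.927), Ccdc88a (0.918) and Gm6377 (0.914). Pld4 encodes an exonuclease of endolysosomes, Ly86 the MD-1 partner of RP105 and Ctsh a cathepsin. The members themselves, which form the mean, had r between 0.851 (H2-DMb2) and 0.993 (H2-Ab1). The class I genes B2m (-0.32), H2-K1 (-0.14) and H2-D1 (-0.57) did not share the pattern.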

How the data were processed

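CD45+ cells of the mouse muscularis externa were profiled in 4 libraries, 1 per group, each pooled from several mice. Per the labels, 10x Genomics 3' v3 libraries were aligned to GRCm38/mm10 and UMIs counted with Cell Ranger 3.0.2. Per the study's methods, Seurat was used to drop cells under 200 genes or above 10% mitochondrial UMIs, and the deposited values are raw counts per gene and cell. Total counts per library ran from 9620609 to 21206308 in the cells analysed. Of 5811 cells, 11 with non-immune markers were left out. Groups were taken from the labels.

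Counts were scaled to log values, and 2000 variable genes (without the members, pathway genes and Ccr2), 30 principal components, 20 neighbours and Leiden clustering at resolution 1 were used (scanpy 1.11.5, leidenalg 0.10.2, Python 3.11.15). Clusters were named from markers (score at least 0.6, at least 3 markers at 20 CPM), and sub-clusters at 0.75. A cluster with T cell receptor genes that was not T cell-like stayed unnamed. "X-like" means no more than that, names were rebuilt here, from which differences from the study may arise. The caller scrublet, run in scanpy, marked 10 of 5800 cells (0.172%), under 0.5%, and so did not work here. Doublets were therefore not removed.

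UMIs were summed per class and library. Levels have exact Poisson, shares exact Clopper-Pearson binomial and log2 ratios exact conditional binomial 95% intervals. They cover counting error only, since cells are not replicates, and no p-value was computed. A gene was counted as 2-fold different where the log2 ratio of (CPM + 10) was at least 1 in size, among genes with 20 CPM in 1 of 2 libraries. The members, markers and lists, and the rule by which all members, the 2 most abundant genes of each list and the 8 most alike genes are named, were chosen with earlier results of these data known. Genes named beyond this rule (Cd80, Pdcd1lg2, Ctsl, Ctsd, Lgmn, Ifng, March8 and Lyz2) and the sub-clusters described singly were chosen after their values were seen. Ratio intervals were tested on simulated data. Alternatives included TMM scaling (edgeR 4.0.16) and other clusterings, and leaving out sub-clusters or the deepest cells was added after the data had been seen.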

Additional observations from a re-analysis of the deposited data

Results flagged for a closer look

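In monocyte/Mφ-like cells, each of the 8 members was higher in CCR2 KO than in WT at 24 h and lower at 72 h, with both counting intervals off 0. The log2 ratios at 24 h and 72 h were 0.97 and -1.87 for H2-Aa, 1.04 and -1.59 for H2-Ab1, 1.21 and -1.71 for H2-Eb1, 0.48 and -0.99 for H2-DMa, 1.21 and -1.01 for H2-DMb1, 1.21 and -1.40 for H2-DMb2, 1.05 and -1.53 for Cd74 and 0.39 and -1.36 for Ciita, and 1.04 and -1.60 for the sum. With 1 library per group, the difference between these ratios was not tested. Without the sub-cluster led by Igkc the sum at 72 h was -0.83 and the members ran from -1.09 (H2-Aa) to -0.36 (H2-DMa), and H2-DMb2 at 72 h was 0.25 where each library was clustered on its own.

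The same 4 libraries give opposite directions between the times. From 24 h to 72 h the log2 ratios in WT and CCR2 KO were 1.93 and -0.91 for H2-Aa, 1.88 and -0.76 for H2-Ab1, 2.25 and -0.68 for H2-Eb1, 1.45 and -0.77 for H2-DMb1, 1.68 and -0.90 for Cd74 and 1.82 and -0.82 for the sum. This difference was not tested either, and the CCR2 KO values rest on the sub-cluster led by Igkc, without which that of the sum was -0.07 and those of H2-Ab1 and H2-Eb1 turned to 0.015 and 0.069.

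In dendritic cell-like cells, opposite directions were found for H2-DMb1 (-0.34 in WT and 0.10 in CCR2 KO) and Cd74 (-0.07 and 0.02), again not tested. The CCR2 KO values turned to -0.055 and -0.030 with at most 5% mitochondrial UMIs, and the WT value of Cd74 to 0.048 at resolution 2.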

How the results depend on the processing

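No paired analysis was possible because each group has 1 library. The log2 ratios of the members' sum are given here in the order CCR2 KO against WT at 24 h, at 72 h, 72 h against 24 h in WT, and in CCR2 KO. In monocyte/Mφ-like cells (1.04, -1.60, 1.82 and -0.82), each kept its sign under each alternative run. The first 3 were 2.20, -1.38 and 2.75 where each library was clustered on its own. All 4 were 1.14, -1.54, 1.93 and -0.75 with a gate on markers per cell, 1.003, -0.99, 1.84 and -0.15 at resolution 2, 0.93, -1.34, 1.94 and -0.33 with at most 5% mitochondrial UMIs, 0.92, -1.80, 1.71 and -1.004 as the mean of per-cell CPM, and 0.92, -1.78, 1.66 and -1.04 with TMM scaling. With the pathway genes left in the clustering the value for 72 h against 24 h in WT was 1.81. Median mitochondrial shares of monocyte/Mφ-like cells were 3.98%, 3.54%, 4.31% and 5.84% in the 4 libraries. The limit of 5% left 51 of the 148 cells of CCR2 KO 72 h.

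Alternatives chosen after seeing the data gave 1.16, -1.49, 1.71 and -0.93 without the sub-clusters led by genes of other classes. Without the Igkc-led sub-cluster the last 3 were -0.83, 1.81 and -0.065. Without the 5% deepest cells those other than 72 h against 24 h in WT were 1.08, -1.68 and -0.94. H2-DMb2 at 72 h reversed, to 0.25, where each library was clustered on its own. Of the 32 ratios of single members, 28 kept their sign without the Igkc-led sub-cluster, and H2-Ab1, H2-Eb1, H2-DMa and H2-DMb2 turned to 0.015, 0.069, 0.51 and 0.48 for the times in CCR2 KO. At resolution 2 the last 3 turned to 0.00991, 0.47 and 0.085, and 29 kept their sign. H2-DMa turned to 0.14 with at most 5% mitochondrial UMIs and H2-DMb2 to 0.095 as the per-cell mean. The cause of these shifts was not tested.

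In dendritic cell-like cells (-0.14, -0.14, 0.00 and 0.00), the first 3 were -0.10, -0.15 and 0.066 with libraries clustered on their own and -0.17, -0.11 and -0.048 with the gate. The last 3 were -0.23, 0.10 and 0.029 at resolution 2. All 4 were -0.092, -0.10, -0.051 and -0.063 with at most 5% mitochondrial UMIs, -0.17, -0.20, -0.026 and -0.056 as the per-cell mean, and -0.10, -0.095, -0.021 and -0.016 without plasmacytoid cells. Of 32 member ratios there, 27 to 32 kept their sign under each alternative, and H2-DMb1 in CCR2 KO against WT at 72 h turned from -0.16 to 0.017 with the gate. CCR2 KO against WT at 72 h and the WT times were -0.18 and 0.026 with the pathway genes left in, and those other than the WT times were -0.12, -0.16 and -0.035 without the deepest cells.

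The number of genes past 2-fold, over both classes, the 4 comparisons and both directions, was 2403, and 3979 with a pseudocount of 1 CPM. Without thinning, H2-Ab1 reached 58.9%, 75.6%, 87.7% and 73.0% of the monocyte/Mφ-like class and, at 72 h, 100% and 98.5% of dendritic cell-like cells.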
